A study of Homo sapiens with 6 samples.

Results

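Death receptors are membrane proteins of the tumour necrosis factor (TNF) receptor family that can switch on apoptosis from outside the cell, and 10 genes of this system were followed here after activation of p53 in HCT116, a line from a human colorectal carcinoma. They were chosen by gene symbol and comprise the receptors FAS, TNFRSF1A, TNFRSF10A, TNFRSF10B and EDA2R, the decoy receptors TNFRSF10C and TNFRSF10D, the ligand TNFSF10, the adaptor FADD and the inhibitor CFLAR. All 10 are rows of the RNA-seq count table, which has 57905 genes, and 8 of the 10 had enough counts to be tested along with 16565 genes in all. TNFSF10 and EDA2R did not pass this filter, and their counts are given as such. The cells received 10 µM Nutlin-3a, an inhibitor that keeps MDM2 from holding p53 in check, for 1 h (Nut 1h) or 10 h (Nut 10h), or the vehicle DMSO alone (Nut 0h). Each of the 3 conditions had 2 biological replicates of this one line, so that 6 libraries were compared, and no p53-deficient cells are among them. The labels do not say how the replicate cultures were made, and p-values measure only the spread between these libraries.

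When a ligand binds FAS or the TRAIL receptors TNFRSF10A and TNFRSF10B, the receptors recruit the adaptor FADD through their death domains, and FADD in turn gathers the initiator caspases CASP8 and CASP10. CFLAR resembles these caspases and limits their activation in the complex. TNFRSF10C and TNFRSF10D bind the same ligand, TRAIL (the product of TNFSF10), but lack a working death domain and are therefore called decoys. TNFRSF1A, the main receptor for TNF, signals mostly through TRADD and RIPK1, and EDA2R binds a product of the ectodysplasin gene EDA. FAS, TNFRSF10B and EDA2R are known targets of p53, and Nutlin-3a is widely used to raise p53 without DNA damage.

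The counts summed to between 26068076 and 35473485 per library, lowest in the second Nut 1h replicate, and counts of mitochondrial genes made up 4.99% to 8.44%, with the highest shares at Nut 1h. All 6 epithelial markers, led by KRT8, were abundant, with a summed level of 5095 to 5769 CPM (counts scaled to a common library total) with vehicle, 3605 to 3796 after 1 h and 6455 to 7422 after 10 h. The markers did not move alike. Mean normalized counts of KRT8, KRT18, KRT19 and CLDN7 were lower after 1 h than with vehicle. Those of EPCAM (9381 with vehicle and 12878 after 1 h) and CDH1 (2264 and 3222) were higher. After 10 h the mean of KRT19 was higher than with vehicle (82735 against 45393), whereas that of EPCAM was lower (7521). The 4 leukocyte markers stayed at 0 to 0.172 CPM in sum, and the endothelial markers in the table at 0.378 to 0.658 CPM. Of the 3 fibroblast markers COL1A1 was well counted, PDGFRB went from 15.5 and 11.3 normalized counts with vehicle to 34.8 and 32.6 after 10 h, and their sum was 39.4 to 42.6 CPM with vehicle, 24.1 to 25.9 after 1 h and 36.6 to 38.8 after 10 h. The part of these markers and of the mitochondrial share in the results was not tested. Among p53 targets, MDM2 rose on the log2 scale by 2.19 ± 0.13 (SE, adjusted p = 3.54e-08 in edgeR's quasi-likelihood test) at Nut 1h, or 1.51 with the offset for GC content described next, and by 3.75 ± 0.13 (adjusted p = 4.51e-10) at Nut 10h. CDKN1A, the cell cycle inhibitor p21, rose by 3.84 ± 0.11 (adjusted p = 1.03e-10) at Nut 10h and stood at 0.05 ± 0.10 (adjusted p = 0.704) at Nut 1h, where it was 0.70 and called higher with that offset. Across all tested genes with a known transcript, the change at Nut 1h followed the GC content of the transcript (Pearson r = -0.69 across 16137 genes, which are not independent replicates), whereas the change at Nut 10h did not follow it to that extent (r = -0.03). The median log2 fold change at Nut 1h went from 0.79 for transcripts with a GC content under 40% to -1.12 for those at or above 60%. The change between Nut 1h and Nut 10h followed GC content the other way (r = 0.61). The Nut 1h log2 fold changes of the death receptor genes are therefore also given after a GC-content offset, which takes the smooth trend on GC content out of each library. The part of GC content in the Nut 1h results was otherwise not tested.

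After 10 h of Nutlin-3a, transcripts of 6 of the 8 tested genes were higher than in vehicle-treated cells. TNFRSF10C and FAS rose most, by 6.74-fold and 5.94-fold, TNFRSF10B rose 3.15-fold, and TNFRSF10D, TNFRSF10A and CFLAR rose between 1.91-fold and 2.08-fold. FADD fell to 0.719 of its vehicle level, and TNFRSF1A was not called. Among all tested genes, 14.1% were called higher and 14.9% lower in this comparison. The median log2 fold change of the 8 genes was 1.04, against 0.0002 over all tested genes. After 1 h, 5 of the 8 genes were already higher (FAS, TNFRSF10A, TNFRSF10B, TNFRSF10D and CFLAR), FADD and TNFRSF1A were lower, and TNFRSF10C was not called. In that comparison 34.5% of all tested genes were called higher and 32.3% lower, and the medians were 0.43 for the 8 genes and 0.05 for all. With the GC-content offset, 4 of the 8 genes were called higher and 2 lower at Nut 1h, where 20.5% of all tested genes were called higher and 24.9% lower. Between Nut 1h and Nut 10h all 8 tested genes rose, against 34.2% of all tested genes called higher and 33.7% called lower, and the median was 0.85 against -0.02 over all. Genes were called at an adjusted p of at most 0.05, and both comparisons with Nut 0h share the same vehicle libraries.

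**Figure D1:**
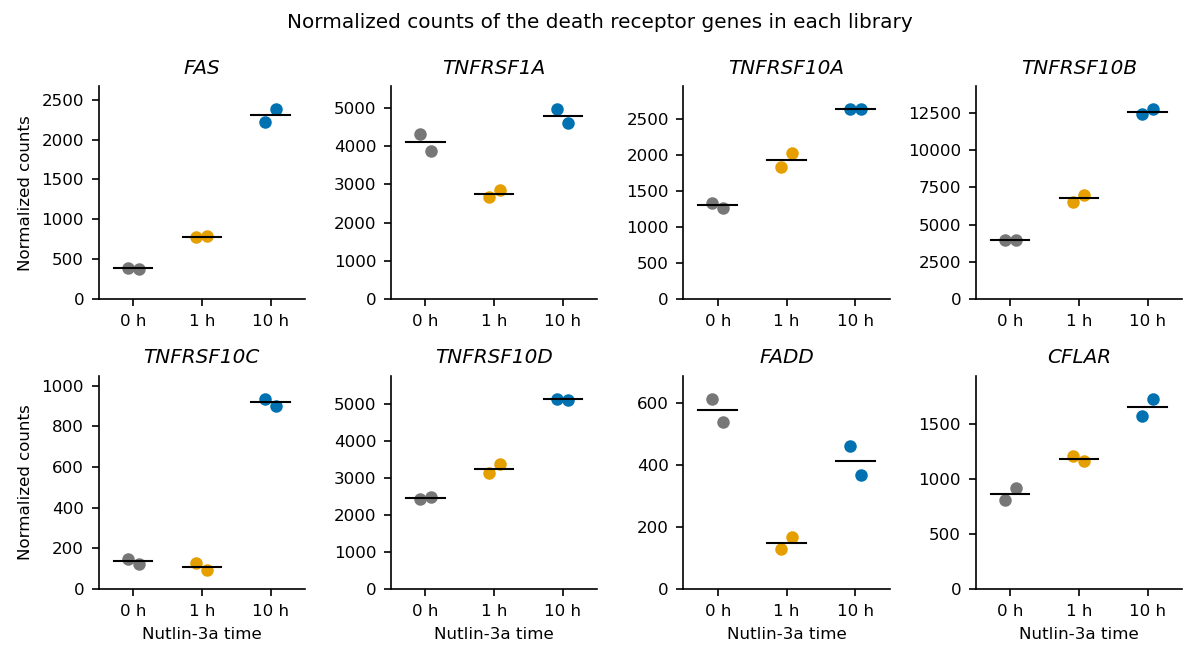
Normalized counts (vertical axes, from 0) of the 8 tested genes in each library at 0, 1 and 10 h of Nutlin-3a (horizontal axes). Points are the 2 replicates of a condition and bars are their means. FAS, TNFRSF10A, TNFRSF10B, TNFRSF10D and CFLAR stepped up at 1 h and again at 10 h, TNFRSF10C was high only in the 10 h libraries, and FADD and TNFRSF1A were lowest in the 1 h libraries.

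FAS, the receptor for FAS ligand, lies on GRCh37 at chr10:90750414-90775542 on the plus strand. A search was made for p53 response elements within 2000 bases on either side of the start of each gene, because p53 is the factor that the treatment releases. An element here is a pair of adjoining p53 decamer half-sites with nothing between them, each keeping its core (a C, then 2 bases that are A or T, then a G), with at most 2 mismatches over the other positions. The pattern reads the same on both strands. It was found at 3 of the 10 genes, FAS, TNFRSF10B and EDA2R, and at 317 of 19404 protein-coding genes of the table (1.63%) in windows of the same 4001 bases. These 3 are the genes named above as known p53 targets, so the 2 shares are no measure of enrichment. The elements of FAS and EDA2R are printed here with the 20 matching bases in capitals, to show what the search matched, from GRCh37 and in the direction of the gene, at chr10:90751061-90751090 on the plus strand for FAS and chrX:65858365-65858464 on the minus strand for EDA2R.
FAS: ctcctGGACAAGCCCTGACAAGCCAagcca
EDA2R: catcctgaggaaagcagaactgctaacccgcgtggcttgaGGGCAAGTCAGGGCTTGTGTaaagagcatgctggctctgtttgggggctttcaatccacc

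The FAS element begins 652 bases after the gene start. Of the 12 annotated FAS transcripts that span it, 10 have it in their first intron and 2 in an exon, and exons of ACTA2 on the opposite strand cover it as well. Those of TNFRSF10B and EDA2R begin 390 and 716 bases after the gene start, in the first intron of all 4 and all 2 transcripts that span them. Each of the 3 elements has 2 mismatches to the pattern. A match describes the letters and not binding, and the same search in the 300-base RefSeq promoter windows of GRCh38.p14 that were at hand for 6 of the genes gave a match in 1 of 12 windows (in FAS), against 0.157% of 35116 windows of all genes, and 1 of 12 against 1.46% with up to 13 bases allowed between half-sites.

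The FAS transcript had 392 and 383 normalized counts with vehicle, 774 and 795 after 1 h, and 2221 and 2384 after 10 h. A normalized count is the count over its library's TMM-scaled size, brought back to the mean of these sizes. The 3 conditions did not overlap, and replicates of a condition lay close together. On the log2 scale FAS rose by 1.02 ± 0.10 (SE, adjusted p = 1.53e-06) at Nut 1h and 2.57 ± 0.10 (adjusted p = 9.25e-10) at Nut 10h. Its transcript has a GC content of 39.1%, and the Nut 1h value was 0.31 with the GC-content offset, still called higher, while the Nut 10h value was 2.54. Exons of FAS overlap those of ACTA2, which encodes smooth muscle actin, on the opposite strand, and the sources used here do not give the strand setting of the counting. ENSG00000286116 on that strand overlaps them too. ACTA2 had 66.7 and 75.1 normalized counts with vehicle, 44.1 and 60.4 after 1 h, and 631 and 692 after 10 h. Its part in the FAS counts was not tested. With the pattern over the 6 libraries compared by Euclidean distance on centred log2 values, genes near to FAS among 11568 candidates were BTG2 (distance 0.28) and TLR3 (0.33), where the median candidate was at 2.75. BTG2 encodes an antiproliferative protein and TLR3 a sensor of double-stranded RNA. Their log2 fold changes were 1.06 and 0.93 after 1 h and 2.82 and 2.29 after 10 h. The distances and these values are without the GC-content offset.

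The 4 TRAIL receptor genes lie side by side on chromosome 8, within 204970 bases at chr8:22877646-23082615 on GRCh37. TNFRSF10B (chr8:22877646-22926544), TNFRSF10D (chr8:22993101-23021540) and TNFRSF10A (chr8:23047965-23082615) are on the minus strand, and TNFRSF10C (chr8:22960434-22974958) is on the plus strand. The members are related in sequence, but no stretch of 50 bases was shared between the transcripts of any 2 of the 10 genes.

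TNFRSF10B, which signals through its death domain, was the most abundant of the 4 per kilobase of exon in every library. It had 4003 and 3984 normalized counts with vehicle, 6503 and 7013 after 1 h, and 12398 and 12761 after 10 h. No condition overlapped another. The log2 fold change was 0.76 ± 0.09 (adjusted p = 5.82e-06) at Nut 1h, 1.66 ± 0.09 (adjusted p = 1.13e-08) at Nut 10h, and 0.90 ± 0.09 (adjusted p = 9.38e-07) between Nut 1h and Nut 10h. The GC-content offset left the Nut 1h value at 0.75. RHOBTB2 on the opposite strand overlaps its exons and fell at Nut 1h (log2 change -0.61 ± 0.11, adjusted p = 2.18e-04) but stood at 0.05 and was not called with the offset, and had 443 to 715 normalized counts over the 6 libraries. The genes with the pattern most like TNFRSF10B were RGS16 (distance 0.20), which dampens G protein signalling, IKBIP (0.23) and the pseudogene EEF1A1P5 (0.25), where the median candidate was at 1.89.

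TNFRSF10A, the other TRAIL receptor with a death domain, moved the same way by less. Its normalized counts were 1332 and 1268 with vehicle, 1825 and 2019 after 1 h, and 2635 and 2633 after 10 h, again without overlap. On the log2 scale it rose by 0.56 ± 0.09 (adjusted p = 1.21e-04) at Nut 1h, or 0.59 with the GC-content offset, and by 1.02 ± 0.09 (adjusted p = 1.69e-06) at Nut 10h. An antisense RNA overlapping its last exon, TNFRSF10A-AS1, rose as well, by 1.42 (adjusted p = 3.32e-05) at Nut 1h, or 0.47 with the offset, and 1.16 (adjusted p = 7.45e-04) at Nut 10h. Exons of TNFRSF10A-DT on the opposite strand overlap it too. Reads of such a pair cannot be told apart if the counting ignored the strand.

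TNFRSF10D, a decoy whose death domain is truncated, had 2441 and 2474 normalized counts with vehicle, 3136 and 3369 after 1 h, and 5136 and 5107 after 10 h. It rose by 0.40 ± 0.09 on the log2 scale (adjusted p = 0.00116) at Nut 1h, or 0.18 with the GC-content offset, and by 1.06 ± 0.09 (adjusted p = 6.68e-07) at Nut 10h. The Nut 1h call was lost, at 0.18, when the offset was combined with a term for the replicate number (a replicate block). No other annotated gene overlaps it.

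TNFRSF10C, the decoy that is anchored to the membrane by a lipid and has no death domain, had a different course. It had 148 and 125 normalized counts with vehicle, 126 and 95.7 after 1 h, and 937 and 903 after 10 h. The Nut 0h and Nut 1h libraries overlapped, and both Nut 10h libraries stood far above them. At Nut 1h the log2 fold change was -0.28 ± 0.17 (adjusted p = 0.150), and it was 0.29 with the GC-content offset, so that no direction can be given. At Nut 10h it rose by 2.75 ± 0.14 (adjusted p = 5.79e-09), and between Nut 1h and Nut 10h by 3.04 ± 0.15 (adjusted p = 1.10e-09), the largest rise of the 8 genes in each of these comparisons. The raw counts behind it were 153 and 133 with vehicle, 126 and 76 after 1 h, and 969 and 970 after 10 h. The annotation places other genes on the same strand over its exons, and these are not rows of the count table.

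Levels of different genes were set side by side per kilobase of exon. This is only a rough scale, since all annotated exons of a gene are joined and the expressed transcripts may be shorter. The 4 TRAIL receptors summed to 2040 and 2009 normalized counts per kilobase with vehicle, 2891 and 3104 after 1 h, and 5434 and 5475 after 10 h. The decoys TNFRSF10C and TNFRSF10D together made up 38.5% and 38.9% of this sum with vehicle, 33.5% and 32.7% after 1 h, and 37.9% and 37.1% after 10 h. All these shares are without the GC-content offset, under which the Nut 1h change of TNFRSF10C had the other sign. The share of TNFRSF10C was 4.69% and 4.02% with vehicle, 2.83% and 1.99% after 1 h, and 11.2% and 10.7% after 10 h, whereas that of TNFRSF10D went from 33.8% and 34.8% at Nut 0h through 30.7% in both Nut 1h libraries to 26.7% and 26.4% at Nut 10h. The share of TNFRSF10B was 39.2% and 39.6% with vehicle, 44.9% and 45.1% after 1 h, and 45.5% and 46.5% after 10 h. TNFRSF10A held 22.3% and 21.6% with vehicle, 21.6% and 22.2% after 1 h, and 16.6% and 16.4% after 10 h. With 2 libraries per condition a two-sided exact permutation test of shares can give no p below 0.333, and none was made.

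**Figure D2:**
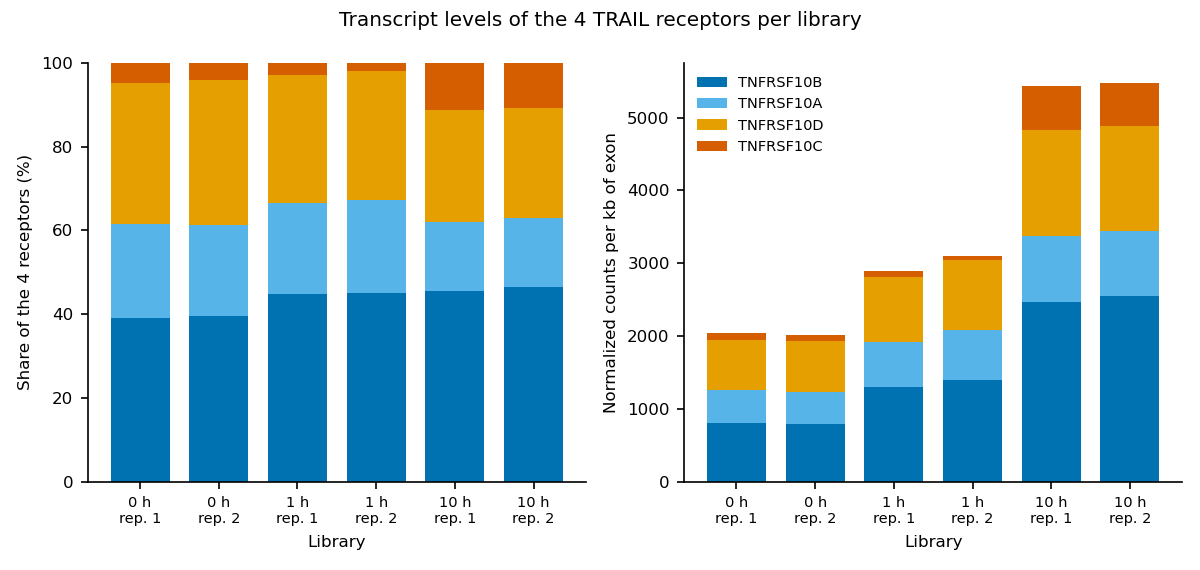
The 4 TRAIL receptor genes in each of the 6 libraries, as shares of their summed level (left, percent) and as normalized counts per kilobase of exon (right), stacked in the same colours. The summed level was 2009 to 2040 at 0 h and 5434 to 5475 at 10 h, and the TNFRSF10C segment widened to 10.7% and 11.2% in the 10 h libraries.

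TNFRSF1A, the TNF receptor, lies at chr12:6437923-6451280 on the minus strand and overlaps no other gene. It fell at Nut 1h. Its normalized counts were 4312 and 3871 with vehicle, 2659 and 2852 after 1 h, and 4968 and 4611 after 10 h. Both Nut 1h libraries were below all others, and the Nut 10h libraries were above those at Nut 0h. The log2 fold change was -0.57 ± 0.10 (adjusted p = 1.25e-04) at Nut 1h, or -0.26 and still called lower with the GC-content offset. At Nut 10h it was 0.23 ± 0.10 (adjusted p = 0.0908), which did not pass the threshold without the offset, and it was 0.19 and called higher with it. Between Nut 1h and Nut 10h TNFRSF1A rose by 0.80 ± 0.10 (adjusted p = 5.51e-06), or by 0.45 with the offset.

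The ligand TNFSF10 (chr3:172223298-172241265, minus strand) and the receptor EDA2R (chrX:65815479-65859140, minus strand) were barely counted. TNFSF10 had 2 counts in each Nut 0h library, 1 in each Nut 1h library, and 0 and 1 in the Nut 10h libraries. EDA2R had 0 and 1 counts with vehicle, 1 and 0 after 1 h, and 0 and 4 after 10 h. Only the last of these exceeds 3 counts, the limit that a count of 0 allows, which corresponds to 0.0846 to 0.115 CPM depending on the library. No fold change is given for either gene, and any change lies under what this depth can detect. These limits cover counting error only.

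FADD, the adaptor that links the receptors to caspases, lies at chr11:70049402-70053496 on the plus strand, and ENSG00000254721 on the opposite strand overlaps its exons. It had 615 and 539 normalized counts with vehicle, 129 and 169 after 1 h, and 461 and 369 after 10 h. The conditions did not overlap, and the Nut 1h libraries were lowest. At Nut 1h FADD had a log2 change of -1.96 ± 0.16 (SE, adjusted p = 2.93e-07), to 0.257 of the vehicle level, the largest fall of the 8 genes. FADD has the highest GC content of the 10 genes, 57.7%, and with the GC-content offset it fell by 1.34. At Nut 10h the log2 fold change was -0.48 ± 0.14 (adjusted p = 0.0204). This call was lost without Nut 0h replicate 1 (log2 fold change -0.38) and without Nut 10h replicate 2 (-0.31). Between Nut 1h and Nut 10h it rose by 1.49 ± 0.16 (adjusted p = 1.97e-06), or by 0.84 with the offset.

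CFLAR, the inhibitor of caspase activation at the receptors, lies at chr2:201980877-202041410 on the plus strand. Its normalized counts were 808 and 919 with vehicle, 1208 and 1159 after 1 h, and 1572 and 1726 after 10 h. The conditions followed each other upward without overlap. It rose by 0.45 ± 0.10 on the log2 scale (adjusted p = 0.00153) at Nut 1h and by 0.93 ± 0.10 (adjusted p = 1.09e-05) at Nut 10h. Under the GC-content offset its Nut 1h value was 0.02 and no longer called, and the rise between Nut 1h and Nut 10h was 0.87 in place of 0.48 ± 0.10 (adjusted p = 8.78e-04). CFLAR shares exonic positions with CFLAR-AS1 and other genes, and its isoforms, the long and short forms of the protein among them, are not separated by counts per gene.

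**Figure D3:**
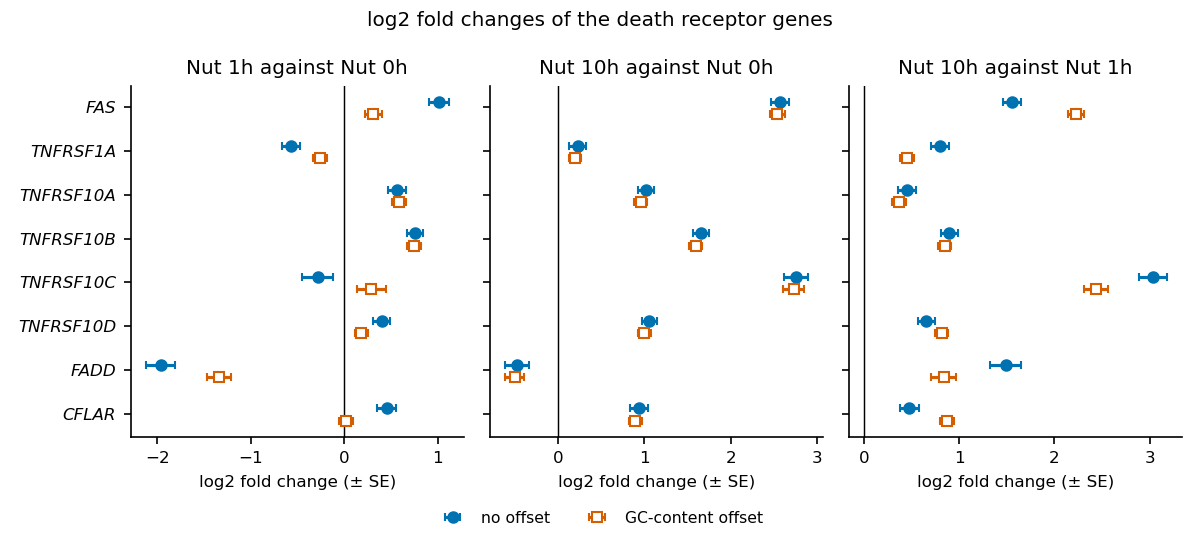
log2 fold changes (horizontal axes) of the 8 tested genes in the 3 comparisons, with standard errors as bars, without an offset (filled circles) and with the GC-content offset (open squares). The pairs of symbols lie close together at Nut 10h against Nut 0h, while at Nut 1h the offset moved FAS from 1.02 to 0.31, CFLAR from 0.45 to 0.02 and TNFRSF10C from -0.28 to 0.29.

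In normalized counts per kilobase of exon, the order of levels at Nut 0h was TNFRSF1A (973 ± 74.1, SD, n = 2), TNFRSF10B (797 ± 2.68), TNFRSF10D (695 ± 6.71), TNFRSF10A (444 ± 15.4), FADD (338 ± 31.3), FAS (109 ± 1.82), TNFRSF10C (88.3 ± 10.5) and CFLAR (38.4 ± 3.51). Each of these differed from the next by more than the sum of both SDs. Such SDs from 2 libraries hold only the spread between libraries and no error between genes, such as that of length. Among 16137 tested genes, these levels ranged from the 33.0 percentile for CFLAR to the 90.1 percentile for TNFRSF1A, with FAS at 50.7. At Nut 1h, without the offset, TNFRSF10B led with 1349 ± 71.9, TNFRSF10A (657 ± 46.8) and TNFRSF1A (655 ± 32.5) did not differ beyond their spread, nor did FADD (87.3 ± 16.2) and TNFRSF10C (71.9 ± 14.1). At Nut 10h the order was TNFRSF10B (2511 ± 51.2), TNFRSF10D (1449 ± 5.73), TNFRSF1A (1139 ± 60.1), TNFRSF10A (900 ± 0.699), FAS (646 ± 32.4), TNFRSF10C (595 ± 15.6), FADD (243 ± 38.4) and CFLAR (73.4 ± 4.85), each apart from the next by more than the sum of both SDs. FAS thus stood below FADD at Nut 0h and above it at Nut 10h. The length used is that of all annotated exons of a gene joined, which is 22478 bases for CFLAR and 1545 to 5010 bases for the other tested genes. The longest annotated CFLAR transcript has 14612 bases, and the order and percentiles hold for the joined length only.

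The rest of the pathway was followed through a list of 43 genes, of which 33 were tested. At Nut 10h, 7 of the 33 were called higher and 3 lower, against 14.1% and 14.9% of all tested genes, and the median log2 fold change was -0.02. BIRC3, a ubiquitin ligase that restrains cell death downstream of TNF, rose by 1.45 ± 0.15 (adjusted p = 5.28e-06), CASP10 by 0.76 ± 0.17 (adjusted p = 0.00398), and TNFAIP8, which is induced by TNF, by 0.56 ± 0.13 (adjusted p = 0.00420). The falls were in TRAF2, an adaptor of TNF receptors (-0.76 ± 0.13, adjusted p = 4.13e-04), DAXX (-0.47 ± 0.09, adjusted p = 0.00207) and FAF1 (-0.30 ± 0.09, adjusted p = 0.0240), both of which were found as partners of FAS. By role, 3 of 10 ubiquitin enzymes and other regulators (BIRC3, TNFAIP8 and CYLD) and 2 of 8 caspases and effectors (CASP10 and CASP8) were called higher. So were 1 of 5 other receptors (TNFRSF25) and 1 of 2 sheddases (ADAM17). Called lower were 3 of 6 adaptors and kinases (TRAF2, DAXX and FAF1). CASP8, the initiator caspase of the receptor complex, rose by 0.37 ± 0.11 (adjusted p = 0.0247). The call of CASP8 at Nut 10h was lost on leaving out any library except Nut 10h replicate 1, with values from 0.22 (without Nut 10h replicate 2) to 0.38 where it was lost. Those of FAF1 and ADAM17 were lost without Nut 0h replicate 1 (-0.26 and 0.26), Nut 10h replicate 2 (-0.24 and 0.31) or either Nut 1h replicate (-0.31 and 0.33 in each case). RIPK1 did not pass the test at Nut 10h (0.01 ± 0.10, adjusted p = 0.951). It was called higher at Nut 1h (0.55, or 0.42 with the GC-content offset). Between Nut 1h and Nut 10h it was called lower (-0.54, or -0.48 with the offset).

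At Nut 1h, 16 of the 33 genes were called higher and 16 lower, and with the GC-content offset 9 and 10, against the background shares of 34.5% and 32.3% without the offset and 20.5% and 24.9% with it. Large rises were in BIRC3 (1.45 ± 0.15, adjusted p = 1.99e-06) and the deubiquitinase CYLD (0.88 ± 0.12, adjusted p = 1.82e-05). With the offset these were 0.59 and 0.21, of which CYLD was not called. The largest falls were in SHARPIN, a subunit of the linear ubiquitin ligase (-1.69 ± 0.13, adjusted p = 2.23e-07), TRADD, the adaptor of TNFRSF1A (-1.61 ± 0.14, adjusted p = 3.91e-07), and DEDD2, a death effector domain protein (-1.60 ± 0.11, adjusted p = 1.29e-07). With the offset these were -0.22, -0.47 and -0.52, each still called lower. Without the offset, 4 of 5 other receptors were lower and 6 of 10 ubiquitin enzymes and other regulators higher. With it these counts were 1 and 3. The offset also turned some calls around, with TNFRSF12A going from -0.53 (lower) to 0.66 (higher), TRAF2 from -0.50 (lower) to 0.42 (higher) and ADAM17 from 0.44 (higher) to -0.29 (lower). The TRAF2 call without the offset was lost on leaving out Nut 1h replicate 1 (-0.33).

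Between Nut 1h and Nut 10h, 13 of the 33 were called higher and 12 lower, against 34.2% and 33.7% of all tested genes. TRADD (1.79 ± 0.14, adjusted p = 6.75e-08), SHARPIN (1.50 ± 0.13, adjusted p = 2.30e-07) and DEDD2 (1.45 ± 0.11, adjusted p = 8.62e-08) rose most, and with the offset they had values of 0.68, 0.09 and 0.39, of which SHARPIN was not called. The apoptosis inhibitor FAIM (-1.12 ± 0.13, adjusted p = 2.67e-06) and the deubiquitinase OTULIN (-0.91 ± 0.10, adjusted p = 3.12e-06) were among those that fell. The offset turned 3 calls around here, with TNFRSF12A going from 0.50 to -0.65, BIRC2 from -0.43 to 0.30 and CYLD from -0.38 to 0.25. Without the offset, the calls of TNFRSF12A (0.42) and CYLD (-0.33) were lost without Nut 1h replicate 1, and that of CYLD also without Nut 10h replicate 1 (-0.24). Of the 10 untested genes, FASLG, the ligand of FAS, had 0 counts in all 6 libraries, and TNF had at most 1 in any.

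**Figure D4:**
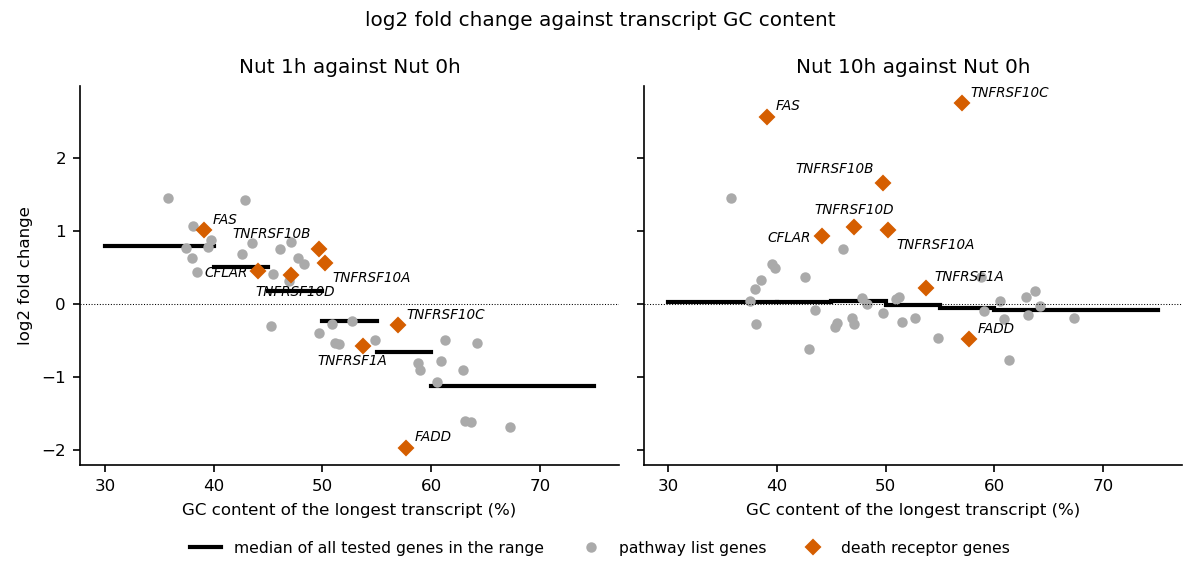
log2 fold change (vertical axis) against the GC content of the longest transcript (horizontal axis, percent) at Nut 1h (left) and Nut 10h (right), for the 8 tested death receptor genes (diamonds) and the 33 pathway list genes (grey points). Black bars are medians of all tested genes in ranges of GC content, drawn from 30% to 75% at the ends, and they descend from 0.79 to -1.12 at Nut 1h and stay between -0.08 and 0.04 at Nut 10h.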

How the data were processed

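Per the study's methods, the authors trimmed paired-end reads with Trim Galore 0.6.6, aligned them with STAR 2.7.0f to GRCh37.p13 and counted them per gene with featureCounts (Subread 2.0.0). The deposited values are raw counts per gene. How strand and multimapping reads were handled, and which annotation release was counted, is not given in the sources used here, so counts of overlapping genes are uncertain. A second deposited table holds the authors' own DESeq2 1.36.0 fold changes and p-values. Only its gene names were used.

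From the counts, genes were kept by filterByExpr, scaled by TMM and tested with edgeR 4.0.16 (R 4.3.3) by the two-sided quasi-likelihood test with the condition as the only term, all 6 libraries in the fit and 3 residual degrees of freedom. P-values were adjusted over all 16565 tested genes by the Benjamini-Hochberg method. SEs were derived from each log2 fold change with its F statistic. The code was tested on simulated data. Replicates were separate libraries, as their counts differed beyond sampling noise, and the labels name no batch. Gene coordinates, lengths and GC content (known for 97.4% of tested genes) came from GENCODE on GRCh37, and the GC-content offset is a loess trend (span 0.4) of each library's deviation on GC content.

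The 10 genes and the 43 pathway genes were chosen with earlier results of these data known. Of the pathway list the text names, per comparison, the 3 largest rises and falls among called genes whose normalized counts average 100 or more and whose groups are apart, and CASP8, RIPK1, TNFRSF25, TNFRSF12A, BIRC2, ADAM17, FASLG and TNF, chosen after their values were seen. The 3 genes most like FAS and TNFRSF10B were sought among genes with the same minimum, on values without the GC-content offset. Some genes of these rules are not reported here. MDM2 and CDKN1A check the treatment. Most genes whose exons overlap a member's are named beside it. Alternatives were other scalings (RLE, upper quartile), DESeq2 1.42.0, no or a stricter low-count filter, a replicate block, the GC-content offset, both together, only the conditions compared, each replicate left out in turn and an adjusted p of at most 0.01.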

Additional observations from a re-analysis of the deposited data

Results flagged for a closer look

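For each of the 8 tested genes the effect of Nutlin-3a against vehicle differed between 1 h and 10 h. The difference was tested as the contrast of Nut 10h with Nut 1h in edgeR's quasi-likelihood test, and its log2 values were 1.5528 for FAS, 0.7980 for TNFRSF1A, 0.4555 for TNFRSF10A, 0.8966 for TNFRSF10B, 3.0351 for TNFRSF10C, 0.6552 for TNFRSF10D, 1.4869 for FADD and 0.4782 for CFLAR. All 8 were higher at Nut 10h in both replicates. Of all tested genes, 34.2% were called higher in this contrast. The single vehicle group drops out of it, so the time of drug treatment cannot be told apart from time in culture. At Nut 1h TNFRSF1A and FADD had been lower than with vehicle, and the GC-content offset took their values in this contrast to 0.45 and 0.84. With the offset the contrast was 2.23 for FAS, 0.37 for TNFRSF10A, 0.85 for TNFRSF10B, 2.44 for TNFRSF10C, 0.82 for TNFRSF10D and 0.87 for CFLAR.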

How the results depend on the processing

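The labels do not say whether same-numbered libraries belong together, and 2 libraries per condition cannot settle it. Same-numbered libraries deviated with r = -0.149 (Nut 0h and Nut 1h), 0.221 (Nut 0h and Nut 10h) and -0.138 (Nut 1h and Nut 10h) over 16565 genes. A replicate block left every count of called death receptor genes as it was (5 higher and 2 lower after 1 h, 6 and 1 after 10 h, 8 and 0 between them). With the Nut 1h numbers crossed, an alternative chosen after seeing the data, 7 were higher at Nut 10h and 8 pathway list genes were lower there. With the replicate block and the GC-content offset together, 3 death receptor genes were higher at Nut 1h (TNFRSF10D, at 0.18, was not called). TNFRSF10C at Nut 1h was reversed to 0.29 by the GC-content offset and to 0.29 by the offset with the block, and CFLAR at Nut 1h was not called under either (0.02 and 0.02). TNFRSF1A at Nut 10h was called higher with upper quartile factors (0.27), with crossed numbers (0.23) and with the GC-content offset (0.19). At an adjusted p of at most 0.01, FADD was not called at Nut 10h, which left 0 death receptor genes lower, and 4 pathway list genes were higher there. Pathway list genes higher at Nut 1h numbered 9 under the offset, with or without the block, and those lower 10 with the offset and 9 with both. Those lower at Nut 10h numbered 7 under either. Leaving out each replicate in turn gave 0 to 1 death receptor genes and 2 to 5 pathway list genes lower at Nut 10h (5 without Nut 0h replicate 2). Where this left a condition with 1 library, that library was assumed to vary like the others. Of 408 comparisons of a single gene's value with an alternative, 397 kept direction and call. The cause of these shifts was not tested. Depth limited TNFSF10 and EDA2R, which had 7 and 6 counts in all.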

Other observations

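The TRAIL receptor cluster was also set beside its neighbours. Within 200000 bases of either end, 7 other genes were tested. At Nut 10h 1 of them was higher and 1 lower, where 14.1% and 14.9% of all tested genes were. The one that rose was TNFRSF10A-AS1, and the one that fell was LOXL2, a lysyl oxidase that cross-links collagen (log2 change -0.87, adjusted p = 2.53e-05 in edgeR's quasi-likelihood test). With the GC-content offset 1 was higher and 2 were lower at Nut 10h, since R3HCC1 (-0.31, or -0.33 with the offset) was then called as well. At Nut 1h 2 of the 7 were higher and 3 lower, against 34.5% and 32.3% of all tested genes, and with the GC-content offset 1 was higher and 1 lower. LOXL2 was lower there, at -1.30 (adjusted p = 3.45e-07), or -0.69 with the offset. CHMP7, the next protein-coding gene beyond TNFRSF10A, which takes part in membrane remodelling, had log2 fold changes of -0.17 (adjusted p = 0.102) at Nut 1h, or 0.16 with the offset, and -0.08 (adjusted p = 0.540) at Nut 10h. The neighbours named here were chosen after their values were seen.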
